A study of Homo sapiens with 24 samples.

Results

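The interferon-stimulated genes are the genes that cells switch on when type I or type III interferon reaches them. The 44 described here were taken by symbol from the 17798 genes in the expression table of 24 human breast cancer xenografts, and all 44 were listed there. They comprised 3 transcription factors, 3 RNA sensors, 5 genes of the ISG15 modifier system, 4 IFIT genes, 5 genes of the OAS family and related nucleases, 4 GTPases and nucleotide enzymes, 4 membrane restriction factors, the PARP9, PARP14 and DTX3L group of 3, and 13 other induced genes. Cells of 3 ER-negative lines (Hs578T, MDA-MB-468 and MDA-MB-231) were injected into the mammary fat pad of mice aged 8 weeks, which were either diabetic or not, and 4 tumours per line and host were sequenced. The diabetic hosts were NOD.Cg-Rag1tm1Mom Ins2Akita Il2rgtm1Wjl/SzJ mice, whose Akita mutation of the insulin gene Ins2 makes them hyperglycemic, and the control hosts were the isogenic strain without that mutation. All hosts lacked Rag1 and Il2rg and therefore mature T, B and NK cells, while their macrophages, neutrophils and stroma remained. Hs578T tumours were collected 8 weeks, MDA-MB-468 tumours 6 weeks and MDA-MB-231 tumours 5 weeks after injection, so that line and time of growth cannot be told apart. Each of the 3 is a single established line, and nothing in the labels says whether animals shared a litter or a day, so P values measure the spread between these tumours.

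As background, type I interferons bind the receptor IFNAR1 and IFNAR2, whose kinases JAK1 and TYK2 pass the signal on by phosphorylation. STAT2 and IRF9 belong to the complex ISGF3, which binds the interferon-stimulated response element in the promoters of the induced genes. Many of the products block viruses, and in breast tumours the same genes are known to be expressed to very different degrees without infection, for example when cytosolic DNA or RNA is sensed.

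The response element is visible in the members' own promoters. RefSeq promoter sequences (GRCh38.p14, 250 bases before to 50 after the annotated start) were matched for 35 of the 44 members. The core GAAANNGAAA, or TTTCNNTTTC on the other strand, was found in 22 of these 35, or 62.9%, against 3.65% of 27305 promoters of the same length. The gamma-activated site TTCNNNGAA, which reads the same on both strands and may overlap the core, was found in 9 of the 35, or 25.7%, against 7.88% of all promoters. The promoters of 7 members on which the results below turn are shown, with the core in capitals. ISG15, IFI27 and IFI6 had the greatest increases in a single diabetic tumour. IFIT1 rose less there, at 4.83-fold, than XAF1 at 7.17-fold, whose promoter holds no match and is not shown. HERC5 and EPSTI1 were each near 0 in a single line. DDX58, which was lower in MDA-MB-231 tumours of diabetic hosts, holds no match to this pattern. Its window does hold gaaacgaaa, with a single base between the repeats, which the pattern cannot find.
ISG15, chr1:1013247-1013546, plus strand: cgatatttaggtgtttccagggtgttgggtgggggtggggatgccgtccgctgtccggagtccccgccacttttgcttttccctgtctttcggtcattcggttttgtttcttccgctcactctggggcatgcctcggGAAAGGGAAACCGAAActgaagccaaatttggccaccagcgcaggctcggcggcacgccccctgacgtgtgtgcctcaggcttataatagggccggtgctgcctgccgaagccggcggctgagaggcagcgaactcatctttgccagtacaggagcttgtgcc
IFI27, chr14:94110486-94110785, plus strand: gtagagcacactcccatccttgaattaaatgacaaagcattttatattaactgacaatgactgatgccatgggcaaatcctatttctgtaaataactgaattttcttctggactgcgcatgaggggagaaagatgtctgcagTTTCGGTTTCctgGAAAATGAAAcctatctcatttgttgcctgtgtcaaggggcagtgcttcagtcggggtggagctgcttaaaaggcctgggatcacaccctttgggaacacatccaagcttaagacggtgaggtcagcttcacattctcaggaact
IFI6, chr1:27672143-27672442, minus strand: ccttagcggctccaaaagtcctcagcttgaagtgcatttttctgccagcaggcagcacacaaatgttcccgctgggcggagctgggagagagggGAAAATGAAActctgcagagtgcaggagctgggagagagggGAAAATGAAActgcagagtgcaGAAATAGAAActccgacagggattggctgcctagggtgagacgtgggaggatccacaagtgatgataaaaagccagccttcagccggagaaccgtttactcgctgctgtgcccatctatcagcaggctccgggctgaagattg
IFIT1, chr10:89392373-89392672, plus strand: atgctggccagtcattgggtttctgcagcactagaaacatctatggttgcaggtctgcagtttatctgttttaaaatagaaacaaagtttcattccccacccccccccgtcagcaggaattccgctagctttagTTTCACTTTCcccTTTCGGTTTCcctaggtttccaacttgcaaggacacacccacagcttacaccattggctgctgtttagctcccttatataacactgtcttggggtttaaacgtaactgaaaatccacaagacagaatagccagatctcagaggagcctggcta
HERC5, chr4:88456869-88457168, plus strand: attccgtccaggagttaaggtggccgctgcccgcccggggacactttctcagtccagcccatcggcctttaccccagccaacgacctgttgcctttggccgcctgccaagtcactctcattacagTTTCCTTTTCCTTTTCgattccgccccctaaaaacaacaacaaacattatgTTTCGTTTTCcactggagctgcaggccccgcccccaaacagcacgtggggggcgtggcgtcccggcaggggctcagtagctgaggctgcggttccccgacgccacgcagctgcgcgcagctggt
EPSTI1, chr13:42992192-42992491, minus strand: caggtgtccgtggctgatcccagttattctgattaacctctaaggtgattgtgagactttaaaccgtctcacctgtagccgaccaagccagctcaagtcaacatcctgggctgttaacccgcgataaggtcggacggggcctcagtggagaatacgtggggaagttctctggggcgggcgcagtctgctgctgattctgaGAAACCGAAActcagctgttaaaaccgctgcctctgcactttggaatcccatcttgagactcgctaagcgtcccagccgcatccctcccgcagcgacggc
DDX58, chr9:32526147-32526446, minus strand: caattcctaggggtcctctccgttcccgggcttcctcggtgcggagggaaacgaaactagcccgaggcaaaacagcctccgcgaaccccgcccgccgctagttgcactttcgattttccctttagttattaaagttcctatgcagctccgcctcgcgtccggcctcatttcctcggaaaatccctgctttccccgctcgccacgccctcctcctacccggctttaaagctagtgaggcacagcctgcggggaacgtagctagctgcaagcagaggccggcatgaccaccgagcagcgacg

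Counted from 0 at the start base, the cores of ISG15 began at -113 and -107, those of IFIT1 at -116 and -103, those of IFI27 at -108 and -95, and the 3 of IFI6 at -156, -115 and -93. HERC5 held 3 cores, at -125, -119 and -74, and EPSTI1 held 1 at -50. These matches describe letters in a window and do not show that a factor binds there. In the tumour described next, the 21 tested members with a core lay a median of 1.38 log2 units above the other diabetic tumours of their group (0.15 to 3.40). The 13 members without a match to the pattern lay 0.89 above them (0.53 to 2.71), and the ranges overlap. DDX58, OAS1, RSAD2 and XAF1, counted among these 13, hold gaaacgaaa, so no match does not mean no response element.

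Values are CPM, read counts scaled to an adjusted library total. The libraries held an inferred 9013083 to 15145424 reads, at which 3 reads correspond to 0.185 to 0.364 CPM, and levels under that limit are not told from 0. A single library stood apart. In diabetic tumour 4 of MDA-MB-468, mitochondrially encoded genes made up 19.95% of the values, against 2.59% to 6.25% in the other 7 tumours of the line. The same tumour had the highest level of the 8 in 42 of the 43 members tested, whereas it was highest in 28.8% of all 15250 genes tested in that line. The counts of members called and the main genes of the MDA-MB-468 host comparison are therefore given with and without this tumour.

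**Figure D1:**
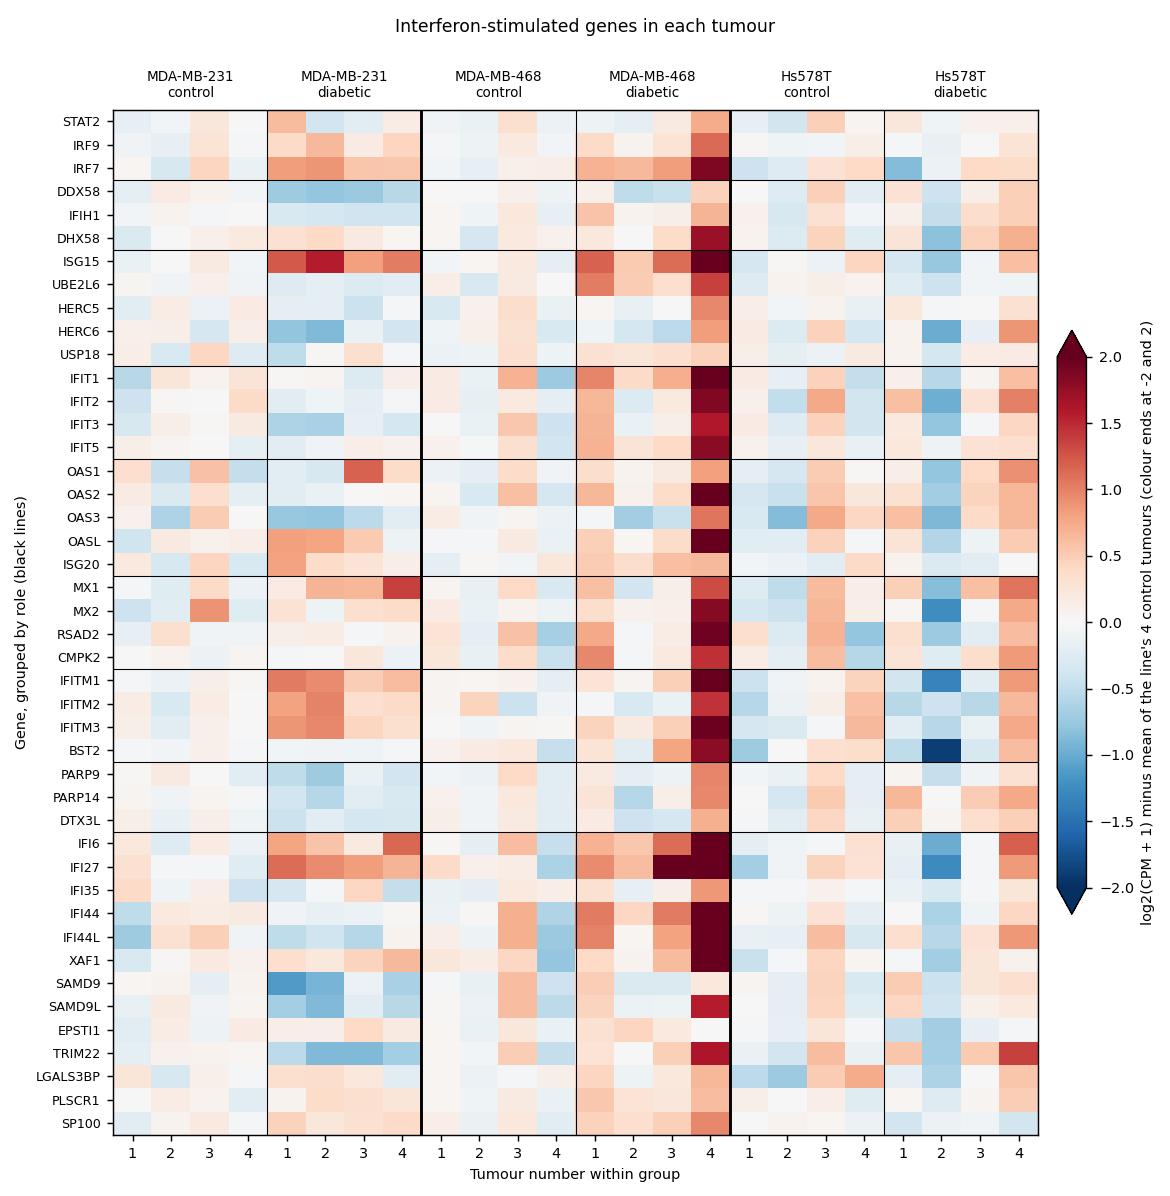
Heat map of the 44 interferon-stimulated genes (rows, grouped by role) in the 24 tumours (columns), as log2(CPM + 1) minus the mean of the 4 control tumours of the same line. Diabetic tumour 4 of MDA-MB-468 is red in nearly every row, diabetic tumour 2 of Hs578T is blue in most rows, and in MDA-MB-231 red rows (ISG15, IFI27, the IFITM genes) and blue rows (DDX58, SAMD9, TRIM22) stand side by side in the diabetic tumours.

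The higher levels in that tumour spanned all roles but differed widely in size between members. Of the 43 members, 28 lay more than 1 log2 unit above the mean of the other 3 diabetic tumours, against 5.17% of all genes, and the median member lay 1.35 log2 units above it. ISG15, a ubiquitin-like protein that is attached to other proteins, measured 396 CPM there and 58.1, 36.2 and 55.4 CPM in the other diabetic tumours, a ratio of 7.93. IFI27, a small membrane protein of mitochondria, measured 323 CPM against 25.1, 19.7 and 52.6 CPM, the widest ratio of all members at 9.95. Both were thus far outside the range of the other tumours of their group. IFI6, an inhibitor of cell death, was 8.67-fold, OASL 7.52-fold, IFI44L 7.46-fold and XAF1 7.17-fold the mean of the other 3. At the low end stood ISG20 with a ratio of 1.12, USP18 with 1.13 and PLSCR1 with 1.20. SAMD9, at 17.2 CPM against 20.997, 11.8 and 11.9 CPM, was the single tested member within the range of the other diabetic tumours.

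Of 86 further genes of the pathway, from ligands and receptors to other induced genes, 63 were listed in the table. This tumour had the highest level of the 8 in 31 of the 62 tested, against 28.8% of all genes, and the lowest in 9, against 34.2%. Their median lay 0.27 log2 units above the other 3 diabetic tumours, against -0.04 for all genes, and 9 of 62 lay more than 1 log2 unit above them, against 5.17% of all genes. The examples that follow were chosen after their values were seen. CXCL10, a chemokine that attracts T cells, measured 22.2 CPM there and 1.04 to 2.06 CPM in the other diabetic tumours. GBP1, an interferon-induced GTPase, measured 60.01 against 15.8 to 25.9 CPM, and SOCS1, an inhibitor of JAK kinases, 4.96 against 0.584 to 1.03 CPM. JAK1 went the other way, at 58.6 CPM against 137 to 159 CPM. None of the 21 interferon ligand genes sought was listed in the table, so the ligands were not analysed here. The markers of leukocytes and macrophages summed to 27.5 CPM in this tumour, within the 20.8 to 34.3 CPM of its group. The control tumours of the line were all below that sum, at 16.4 to 20.2 CPM. Across the diabetic group CD14 spanned 12.8 to 23.5, ITGAM 0.951 to 6.99, CSF1R 0.531 to 5.05 and CD68 0 to 4.35 CPM. In the control tumours ITGAM spanned 1.15 to 3.56 and CSF1R 2.01 to 3.07 CPM. None of the 6 lymphocyte markers was listed. The mesenchymal markers of this tumour summed to 80.4 CPM, against 346 to 673 CPM in the control tumours. Its endothelial markers summed to 51.96 CPM, against 104 to 115 CPM, and each sum was the lowest of the 8. In this line nearly all of the endothelial sum was KDR (means of 108 and 65.1 CPM in control and diabetic tumours). PECAM1, VWF, CDH5 and TEK reached at most 0.792 CPM. The mesenchymal sum was mostly VIM (400 and 186 CPM) and FN1 (111 and 78.7 CPM). Which cells the markers came from, and the part of such cells in the member levels, was not tested.

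Within groups, the spread of the members was at least that of other genes, and tumours tended to be high or low in many members at a time. The median SD of a member's log2 level was 0.23 in MDA-MB-468 control and 0.72 in diabetic tumours, against 0.13 and 0.26 for all genes tested. In Hs578T it was 0.36 and 0.47, against 0.24 and 0.19, and in MDA-MB-231 0.21 and 0.21, against 0.17 and 0.20. Diabetic tumour 2 of Hs578T had the lowest level of the 8 in 33 of 43 members, against 7.25% of all genes, and diabetic tumour 4 the highest in 27, against 12.2%. Control tumour 3 of that line had the highest level of the 4 control tumours in 31 members, against 28.1% of all genes. In MDA-MB-468, control tumour 3 was highest of the 4 control tumours in 36 of 43 members, against 24.7%, and control tumour 4 lowest in 29, against 26.9%. Tumours of the same line and host thus differed in many members at once, which entered the error of every host comparison below. BST2, a protein that tethers budding viruses, spanned 9.75 to 59.5 CPM in the 4 diabetic Hs578T tumours, and TRIM22 spanned 23.3 to 99.5 CPM. In bulk tumours, fewer cells of a kind and less RNA per cell cannot be told apart.

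**Figure D2:**
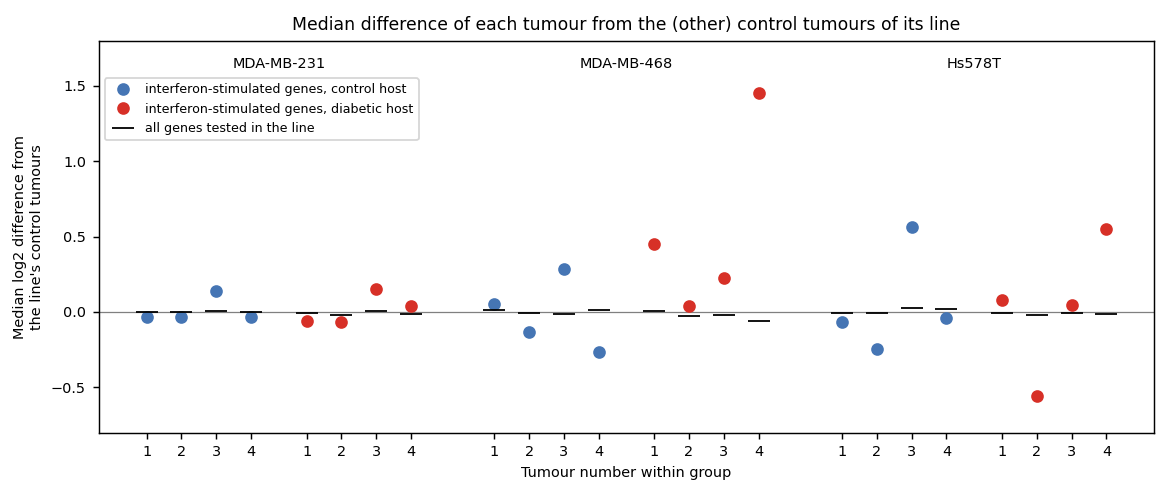
Median log2 difference of each tumour from the control tumours of its line (for a control tumour, from the other 3), over the interferon-stimulated genes tested (points, coloured by host) and over all genes tested (dashes). All dashes lie near 0, while the points reach 1.45 in diabetic tumour 4 of MDA-MB-468, 0.57 in control tumour 3 of Hs578T and -0.56 in diabetic tumour 2 of Hs578T.

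Host diabetes in MDA-MB-468 was compared first. With all 8 tumours, 40 of 43 members had a positive difference, with a median of 0.57 on the log2 scale against -0.01 for all genes, but only IRF7 and ISG20 rose at an adjusted P of 0.05 in limma and none fell. Of all genes tested, 3.11% were called higher and 5.13% lower at that threshold. At an adjusted P of 0.3, which the study used for MDA-MB-231 and this line, 28 members were higher and 0 lower, against 18.6% and 23.3% of all genes. Without diabetic tumour 4, 10 members rose and 0 fell at 0.05, against 10% and 11.3% of all genes, and the median member difference was 0.25. At 0.3 and without that tumour, 21 were higher and 3 lower, against 24.3% and 26.8%. With mitochondrially encoded genes left out and the libraries rescaled, 24 members were higher at 0.3, against 18.7% of all genes, and IRF7 alone passed at 0.05. That rescaling to the remaining totals also undid the adjustment of the library totals, and the 2 changes were not separated. The number called at 0.05 was 0 without any 1 of the control tumours or without diabetic tumour 2 or 3, and 1 without diabetic tumour 1. At an unadjusted P under 0.05, 15 members passed with all tumours, against 28.3% of all genes, and 16 of 43 without tumour 4, against 35.95%.

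Among the transcription factors of this line, IRF7, which amplifies interferon production, measured 19.4, 17.97, 21.8 and 22.3 CPM in the control and 33.3, 32.5, 37.2 and 76.9 CPM in the diabetic tumours. Every diabetic tumour lay above every control tumour, by 1.01 ± 0.24, adjusted P = 0.0377 (log2 difference ± SE), and without diabetic tumour 4 by 0.73 ± 0.11, adjusted P = 0.00126. STAT2 at 0.15 ± 0.20 and IRF9 at 0.46 ± 0.20 did not pass the test, nor did they without tumour 4 (-0.04 ± 0.13 and 0.24 ± 0.11). ISG15 measured 24.2, 25.6, 28.8 and 21.99 CPM in the control tumours, below all the diabetic values given above. Its difference of 1.69 ± 0.59, adjusted P = 0.101 missed the threshold with all tumours, and the smaller difference without tumour 4 passed it (0.94 ± 0.15, adjusted P = 0.00197). UBE2L6, which loads ISG15 for conjugation, measured 31.2, 22.7, 32.2 and 28.1 CPM in the control and 58.4, 40.4, 35.8 and 74.9 CPM in the diabetic tumours, without overlap (0.81 ± 0.22, adjusted P = 0.0502, and without tumour 4 0.62 ± 0.16, adjusted P = 0.0177). ISG20, an exonuclease that degrades viral RNA, measured 4.07, 4.80, 4.51 and 5.69 CPM in the control and 7.19, 6.34, 7.72 and 7.97 CPM in the diabetic tumours (0.53 ± 0.14, adjusted P = 0.0476, and without tumour 4 0.49 ± 0.14, adjusted P = 0.0307).

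IFITM3, which hinders viral entry at endosomes, measured 272, 257, 281 and 275 CPM in the control and 369.9, 306, 377 and 1062 CPM in the diabetic tumours. Here too the hosts did not overlap, and the difference passed the test without tumour 4 (0.36 ± 0.09, adjusted P = 0.0146) but not with it (0.76 ± 0.32, adjusted P = 0.157). IFI27 measured 16.6, 13.5, 14.04 and 7.76 CPM in the control tumours, all below the diabetic ones, with 2.03 ± 0.72, adjusted P = 0.101 for 8 tumours and 1.18 ± 0.29, adjusted P = 0.0138 without tumour 4. IFI6 measured 13.4, 11.4, 20.6 and 9.18 CPM in the control and 21.9, 19.5, 29.4 and 204 CPM in the diabetic tumours. Its hosts overlapped, and its difference was 1.56 ± 0.63, adjusted P = 0.141 with and 0.79 ± 0.22, adjusted P = 0.0239 without tumour 4. The other members that passed without this tumour were SP100, PLSCR1 and IFI44, at 0.42, 0.35 and 0.83. With all 8 tumours, every diabetic tumour lay above every control tumour in 8 members (IRF7, ISG15, UBE2L6, ISG20, IFITM3, IFI27, PLSCR1 and SP100), against 8.98% of all genes, and below in 0, against 12.7%.

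The sensors and many classical antiviral effectors of MDA-MB-468 did not pass the test with or without tumour 4. DDX58, the RNA sensor RIG-I, differed by -0.10 ± 0.20 and IFIH1, the sensor MDA5, by 0.36 ± 0.16, and without tumour 4 by -0.28 ± 0.14 and 0.25 ± 0.13. MX1, a GTPase that traps viral nucleocapsids, measured 179, 156, 226 and 139 CPM in the control and 263, 132, 187 and 425 CPM in the diabetic tumours, with overlap (0.41 ± 0.31, adjusted P = 0.413, and without tumour 4 0.11 ± 0.20, adjusted P = 0.732). IFIT1, which binds foreign RNA ends, measured 17.6, 14.2, 25.99 and 9.04 CPM and 31.5, 20.6, 26.5 and 126 CPM, and its difference of 1.25 ± 0.50, adjusted P = 0.139 was 0.69 ± 0.26, adjusted P = 0.0768 when tumour 4 was left out. OAS1 (0.35 ± 0.18), USP18 (0.34 ± 0.13) and BST2 (0.66 ± 0.36) gave no call either, with 0.20 ± 0.13, 0.29 ± 0.12 and 0.28 ± 0.21 without that tumour. The PARP9, PARP14 and DTX3L group, whose products form an ADP-ribosylating complex with a ubiquitin ligase, had differences of 0.21, 0.20 and 0.03, and of -0.04, -0.06 and -0.20 without tumour 4. The hosts of this line, too, did not overlap in the correlation of their libraries with transcript length, at a Spearman rho of 0.10 to 0.42 in control and -0.26 to -0.13 in diabetic tumours, a measure described with MDA-MB-231 below. With that trend removed and all 8 tumours kept, the difference of IRF7 was 0.72 ± 0.16, adjusted P = 0.0453 and that of ISG20 0.71 ± 0.14, adjusted P = 0.0323. No other member passed in that limma fit, with ISG15 at an adjusted P of 0.145, UBE2L6 at 0.0975, IFI27 at 0.136 and IFITM3 at 0.272. The trend was not removed in the fit without tumour 4. Of the 10 members called there, SP100 and ISG20 had longest transcripts of 5414 and 5634 bases. The others lay between 787 (ISG15) and 2430 bases (IFI27), against a median of 3897 bases for the members.

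**Figure D3:**
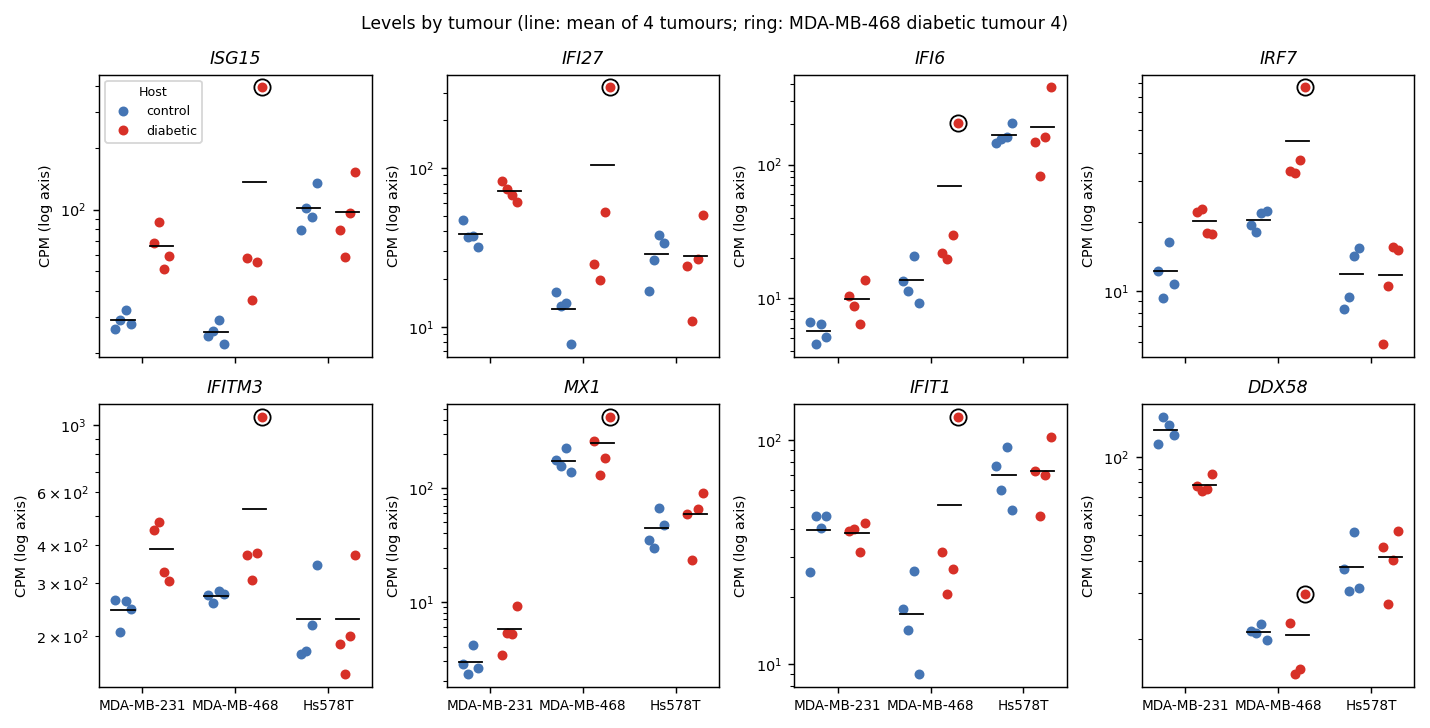
CPM (log axis) of 8 interferon-stimulated genes in every tumour of the 3 lines, blue for control and red for diabetic hosts, with a bar at the mean of each 4. The ringed point, diabetic tumour 4 of MDA-MB-468, lies at 396 CPM for ISG15 and 323 CPM for IFI27, above the other 7 tumours of its line in all 8 panels, and DDX58 of MDA-MB-231 shows the opposite order of hosts.

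In MDA-MB-231 the members split. Of 42 tested, 10 rose and 11 fell with host diabetes at an adjusted P of 0.05, with a median difference of -0.01. All genes gave 16.1% higher and 17% lower. At 0.3, 15 were higher and 14 lower, against 30.6% and 31.3% of all genes. Every diabetic tumour lay above every control tumour in 8 members, against 15.6% of all genes, and below in 7, against 16.2%. Without control tumour 4, 6 were higher and 5 lower at 0.05, 5 were lower without diabetic tumour 1 or 2, and 7 without control tumour 1, 2 or 3. RSAD2 and CMPK2 were too low in this line to be tested.

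Among the members that rose, ISG15 measured 26.1, 28.8, 32.4 and 27.7 CPM in the control and 68.6, 87.1, 51.3 and 59.6 CPM in the diabetic tumours. The hosts were well apart, and the difference was 1.16 ± 0.14, adjusted P = 0.000365. IFI27 measured 46.9, 36.9, 37.3 and 31.7 CPM against 83.4, 73.6, 67.9 and 61.04 CPM, again without overlap (0.89 ± 0.13, adjusted P = 0.000612). IFITM1, which acts at the plasma membrane, measured 61.3, 57.4, 67.3 and 62.8 CPM against 128, 121, 87.4 and 95.8 CPM (0.77 ± 0.12, adjusted P = 0.000897). The other 2 IFITM genes stood likewise, IFITM2 by 0.63 ± 0.15, adjusted P = 0.00716, and IFITM3, at 244 ± 26.2 CPM against 388 ± 85.9 CPM (SD, n = 4), by 0.65 ± 0.14, adjusted P = 0.00493. The 3 IFITM genes are related in sequence, and reads can be misassigned among them. IRF7 measured 12.2, 9.33, 16.4 and 10.7 CPM against 22.05, 22.8, 17.9 and 17.7 CPM (0.70 ± 0.17, adjusted P = 0.00689), and IRF9 rose by 0.41 ± 0.13, adjusted P = 0.0291. MX1 was low in this line, at 2.84, 2.32, 4.14 and 2.62 CPM against 3.41, 5.29, 5.18 and 9.11 CPM with overlapping hosts (0.72 ± 0.23, adjusted P = 0.0305). IFI6 and SP100, a protein of nuclear bodies, completed the 10 at 0.67 and 0.34.

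The members that fell included both main RNA sensors. DDX58 measured 112, 142, 133 and 122 CPM in the control and 77.2, 74.1, 75.6 and 86.2 CPM in the diabetic tumours, with no overlap (-0.69 ± 0.10, adjusted P = 0.000566). IFIH1 measured 11.5, 12.6, 11.7 and 12.004 CPM against 9.46, 9.17, 8.85 and 8.85 CPM, also without overlap (-0.36 ± 0.12, adjusted P = 0.0386). TRIM22, a ubiquitin ligase that restricts viral transcription, measured 9.89, 12.3, 12.2 and 11.9 CPM against 7.68, 5.78, 5.81 and 6.83 CPM and had the largest fall of the 11 (-0.74 ± 0.15, adjusted P = 0.00247). PARP14 differed by -0.37 ± 0.11, adjusted P = 0.0195, DTX3L by -0.33 ± 0.11, adjusted P = 0.0345 and PARP9 by -0.43 ± 0.16, adjusted P = 0.0469, so that all 3 of that group were lower. IFIT3 (-0.45 ± 0.14, adjusted P = 0.0232) was the only one of 4 IFIT genes that fell, whereas IFIT1 (-0.01 ± 0.17) and IFIT2 (-0.13 ± 0.15) gave no call. OAS3, HERC6, SAMD9 and the related SAMD9L, inhibitors of translation, made up the rest, at -0.57, -0.55, -0.71 and -0.58. STAT2 (0.04 ± 0.19), USP18 (-0.04 ± 0.21), OAS1 (0.25 ± 0.32), BST2 (-0.06 ± 0.08) and UBE2L6 (-0.24 ± 0.09) did not pass.

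Transcript length moved with this split. The longest transcripts of the 10 members that rose had a median of 1548 bases (787 to 5778), and those of the 11 that fell a median of 5768 bases (3712 to 9696). Across all genes, each library's deviation from its line mean was correlated with transcript length at a Spearman rho of 0.26 to 0.51 in the 4 control and of -0.43 to -0.20 in the 4 diabetic MDA-MB-231 tumours, so the hosts did not overlap in this measure. With each library's trend in length and GC content removed, 8 members were higher and 5 lower, of which 6 and 3 were among those called before, against 12.6% and 12.2% of all genes. ISG15 then differed by 0.64 ± 0.12, adjusted P = 0.00362, IFI27 by 0.83 ± 0.12, adjusted P = 0.00136, MX1 by 0.95 ± 0.23, adjusted P = 0.011, IFITM1 by 0.42 ± 0.10, adjusted P = 0.0113, DDX58 by -0.51 ± 0.08, adjusted P = 0.00159 and TRIM22 by -0.59 ± 0.13, adjusted P = 0.00846. IRF7, IFI6, IFITM2 and IFITM3 no longer passed as higher, nor IFIH1, HERC6, IFIT3, OAS3, PARP9, PARP14, DTX3L and SAMD9L as lower. BST2 and UBE2L6 then passed as lower, at -0.43 and -0.52, and ISG20 and XAF1 as higher, at 0.57 and 0.49.

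**Figure D4:**
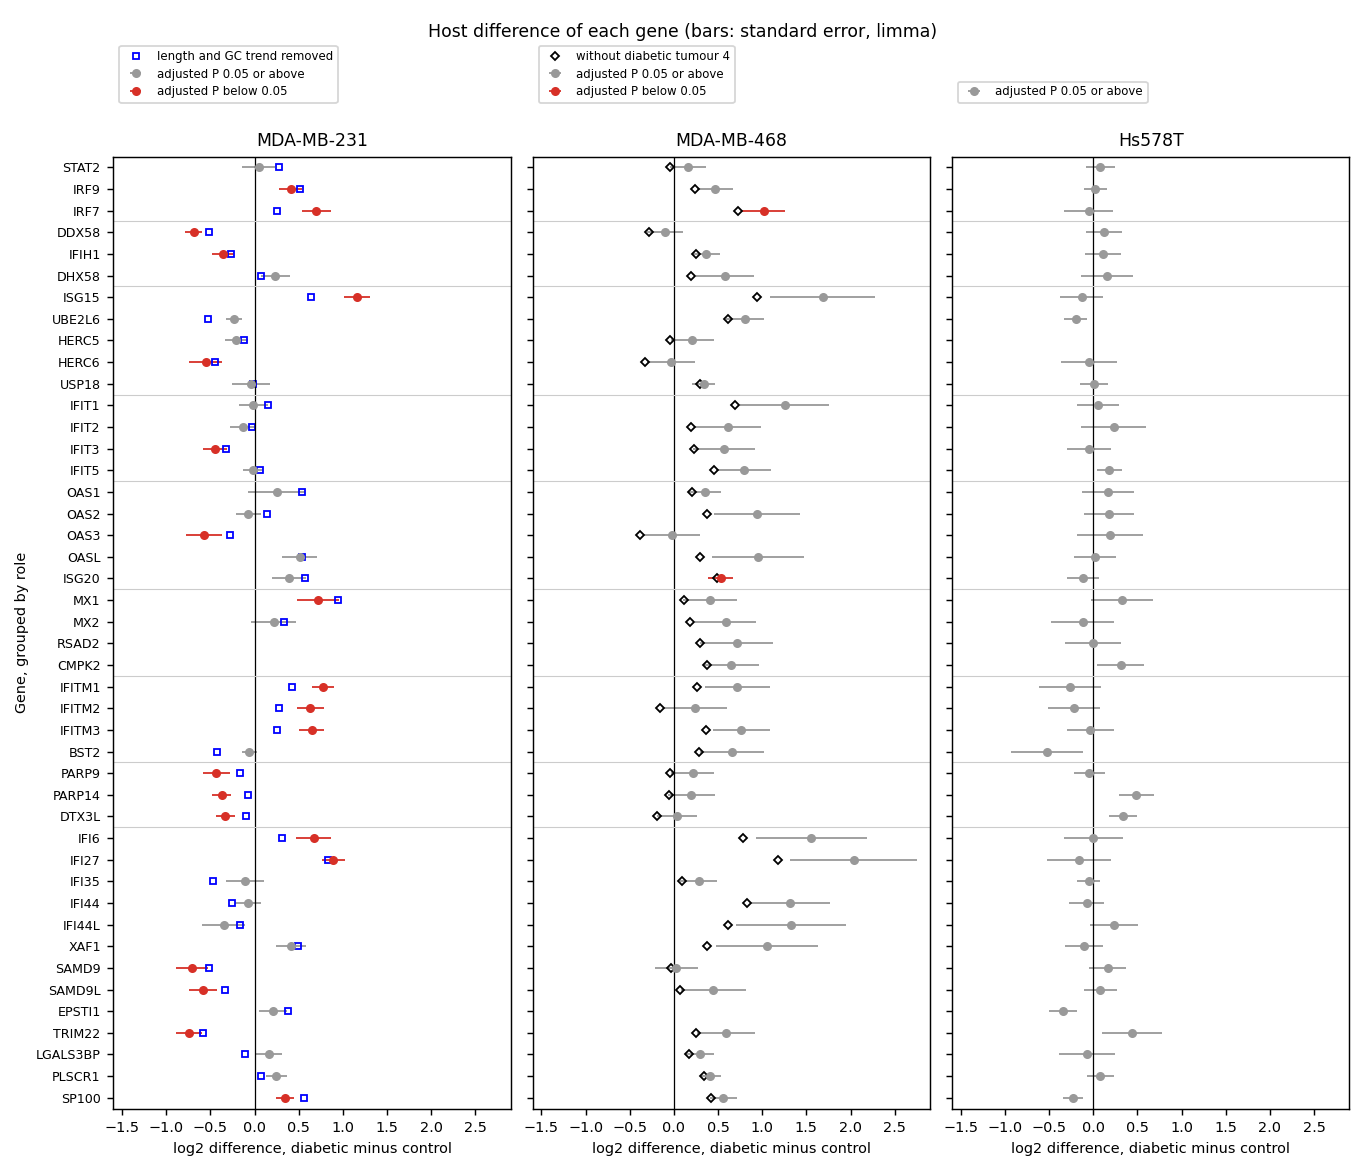
Host difference of each interferon-stimulated gene in each line as log2(CPM + 1) of diabetic minus control tumours, with the standard error from limma, red where the adjusted P was below 0.05. Open diamonds give MDA-MB-468 without diabetic tumour 4 and open squares MDA-MB-231 with the length and GC trend removed. Points lie on both sides of 0 in MDA-MB-231 and mostly right of it in MDA-MB-468, with long bars there, and no point is red in Hs578T.

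In Hs578T none of the 43 members tested passed in limma, 0 higher and 0 lower at an adjusted P of 0.05 and also at 0.3, which was not the study's threshold for this line. The background was low as well, with 0.0275% of all genes higher and 0.00687% lower at 0.05, and 1.14% and 0.783% at 0.3. At an unadjusted P under 0.05, 3 members passed, against 11.4% of all genes. These 3 were PARP14, at 59.2, 46.3, 85.2 and 51.9 CPM in the control and 94.2, 59.3, 84.8 and 100.8 CPM in the diabetic tumours (0.49 ± 0.20, adjusted P = 0.405), DTX3L (0.34 ± 0.15, adjusted P = 0.434) and EPSTI1 (-0.34 ± 0.16, adjusted P = 0.435). The hosts overlapped in all 44 members, whereas all genes gave 3.04% with every diabetic tumour above and 3.24% with every one below. ISG15 measured 79.4, 101.4, 92.2 and 135 CPM in the control and 79.5, 58.97, 96.5 and 153 CPM in the diabetic tumours (-0.13 ± 0.25). IFI27 measured 16.9, 26.3, 37.98 and 33.7 CPM and 24.2, 10.8, 26.8 and 50.6 CPM (-0.16 ± 0.36). For both, diabetic tumour 2 was the lowest and diabetic tumour 4 the highest of the 8, so the spread within the diabetic group was wider than the difference between hosts. The largest difference in size was that of BST2, at -0.52 ± 0.41.

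Whether the host difference varied between lines was tested with an F test over all 24 tumours. UBE2L6 and SP100 passed at an adjusted P of 0.05 (0.00558 and 0.0106), which is 2 of 44 members against 14.9% of all genes, and 23 members passed at 0.3, against 44.2%. UBE2L6 differed by -0.20 ± 0.13 in Hs578T, 0.81 ± 0.22 in MDA-MB-468 and -0.24 ± 0.09 in MDA-MB-231. SP100 differed by -0.23 ± 0.11, 0.56 ± 0.15 and 0.34 ± 0.10 in the same order. ISG15 did not pass this test (adjusted P = 0.0893) with all tumours but did without diabetic tumour 4 of MDA-MB-468 (adjusted P = 0.00835), when 6 members (DDX58, ISG15, UBE2L6, PARP14, DTX3L and SP100) passed against 22% of all genes. With all tumours, DDX58 gave an adjusted P of 0.085.

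As in all genes tested, more members differed between lines than between hosts. In control tumours, 17 of 44 members were higher and 20 lower in MDA-MB-468 than in MDA-MB-231 at an adjusted P of 0.05, against 38.8% and 34.2% of all genes. Hs578T had 25 higher and 10 lower than MDA-MB-231, against 34.8% and 33.4%, and 25 higher and 11 lower than MDA-MB-468, against 36.4% and 39.2%. The median member lay 0.78 log2 units higher in Hs578T than in MDA-MB-231 and 0.64 higher than in MDA-MB-468, where the medians of all genes were at 0.00 and -0.03. These comparisons share control tumours, and they contrast single lines.

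Each line had members that were low, some of them under the limit of 3 reads, and far higher in another line. MX1 measured 35.4, 29.7, 66.8 and 47.1 CPM in Hs578T, 179, 156, 226 and 139 CPM in MDA-MB-468 and 2.84, 2.32, 4.14 and 2.62 CPM in MDA-MB-231. The 3 lines did not overlap, and MX1 was higher in MDA-MB-468 than in MDA-MB-231 by 5.46 ± 0.22, adjusted P = 4.17e-12. USP18, which removes ISG15 and damps receptor signalling, measured 0.892, 0.397, 1.30 and 0.447 CPM in MDA-MB-231 against 23.1 to 31.9 CPM in MDA-MB-468 and 16.8 to 21.6 CPM in Hs578T (3.93 ± 0.17, adjusted P = 1.04e-11 for MDA-MB-468 against MDA-MB-231). MX2 was low in MDA-MB-468 at 0.686 to 1.07 CPM, low in MDA-MB-231 at 0.405 to 2.47 CPM, and 16.3 to 36.1 CPM in Hs578T (3.66 ± 0.27, adjusted P = 6.72e-09 for Hs578T against MDA-MB-468). RSAD2, the antiviral enzyme viperin, measured 0, 0.397, 0.0618 and 0.0639 CPM in MDA-MB-231, where 3 tumours were under the limit of 3 reads, against 2.63 to 7.59 CPM in MDA-MB-468 and 22.96 to 65.2 CPM in Hs578T. Its neighbour CMPK2, a mitochondrial nucleotide kinase whose start lies 750 bases away on the other strand of chromosome 2, was low in the same line, at 0 to 0.132 CPM against 5.83 to 11.03 CPM (MDA-MB-468) and 4.52 to 11.5 CPM (Hs578T).

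HERC5, the main ligase for ISG15 in human cells, measured 0.330, 0.165, 0.262 and 0.0870 CPM in Hs578T against 28.9 to 37.9 CPM in MDA-MB-231 and 13.3 to 21.3 CPM in MDA-MB-468. Its neighbour HERC6 on chromosome 4, 78267 bases away from start to start, was not low there, at 19.4 to 35.01 CPM. Hs578T thus held high ISG15 and UBE2L6 with hardly any HERC5. EPSTI1, a gene linked to epithelial and stromal interaction, was near 0 in another line, with 45.98, 41.6, 55.5 and 45.7 CPM in Hs578T, 1.70 to 2.49 CPM in MDA-MB-231 and 0.134, 0, 0.286 and 0 CPM in MDA-MB-468. Both genes hold the response element core in the promoters shown above. The fitted differences of these near-absent genes (5.18 for RSAD2 and -4.84 for HERC5 in Hs578T against MDA-MB-231, 5.45 for EPSTI1 and -3.86 for HERC5 in Hs578T against MDA-MB-468) depend on the 1 CPM added before the logarithm and are no bounds.

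By role, all 4 IFIT genes were lower in control tumours in MDA-MB-468 than in MDA-MB-231 and all 4 lower than in Hs578T, but between the diabetic tumours of MDA-MB-468 and MDA-MB-231 the difference of IFIT1 was 0.0176 (adjusted P = 0.982 in limma). IFIT3 measured 7.01, 6.24, 10.53 and 4.98 CPM in MDA-MB-468, 48.8, 66.6, 62.1 and 69.5 CPM in MDA-MB-231 and 60.3, 44.7, 74.1 and 41.5 CPM in Hs578T, the last pair overlapping (-2.97 ± 0.21, adjusted P = 3.35e-09 for MDA-MB-468 against MDA-MB-231). IFIT2 gave -2.95 ± 0.23, adjusted P = 1.76e-08 in the same comparison. The RNA sensors went in opposite directions, DDX58 at -2.51 ± 0.14, adjusted P = 2.46e-10 and IFIH1 at 1.73 ± 0.13, adjusted P = 8.4e-09 for MDA-MB-468 against MDA-MB-231. OAS1 measured 5.36 to 12.3 CPM in MDA-MB-231, 27.4 to 50.03 CPM in Hs578T and 51.2 to 75.8 CPM in MDA-MB-468, without overlap. Of the membrane factors, IFITM2 was highest in MDA-MB-231 at 66.4 to 91.4 CPM and lowest in Hs578T at 1.24 to 4.00 CPM (-4.64 ± 0.22, adjusted P = 5.84e-11), and BST2 was ordered from MDA-MB-231 over MDA-MB-468 to Hs578T with 157 to 174 CPM, 67.03 to 108 CPM and 23.2 to 49.7 CPM. IFI6 was the reverse, at 6.65, 4.499, 6.36 and 5.11 CPM in MDA-MB-231, 145 to 205 CPM in Hs578T and 9.18 to 20.6 CPM in MDA-MB-468 (Hs578T against MDA-MB-231 4.65 ± 0.20, adjusted P = 1.1e-11). All of PARP9, PARP14 and DTX3L were lower in MDA-MB-231 than in either of the others. Of the transcription factors, IRF9 stood at 28.6 ± 4.15 CPM, 29.2 ± 2.83 CPM and 36.7 ± 2.43 CPM (SD, n = 4) in the order used above for BST2, and IRF7 at 12.2 ± 3.04 CPM, 20.4 ± 2.02 CPM and 11.8 ± 3.47 CPM.

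**Figure D5:**
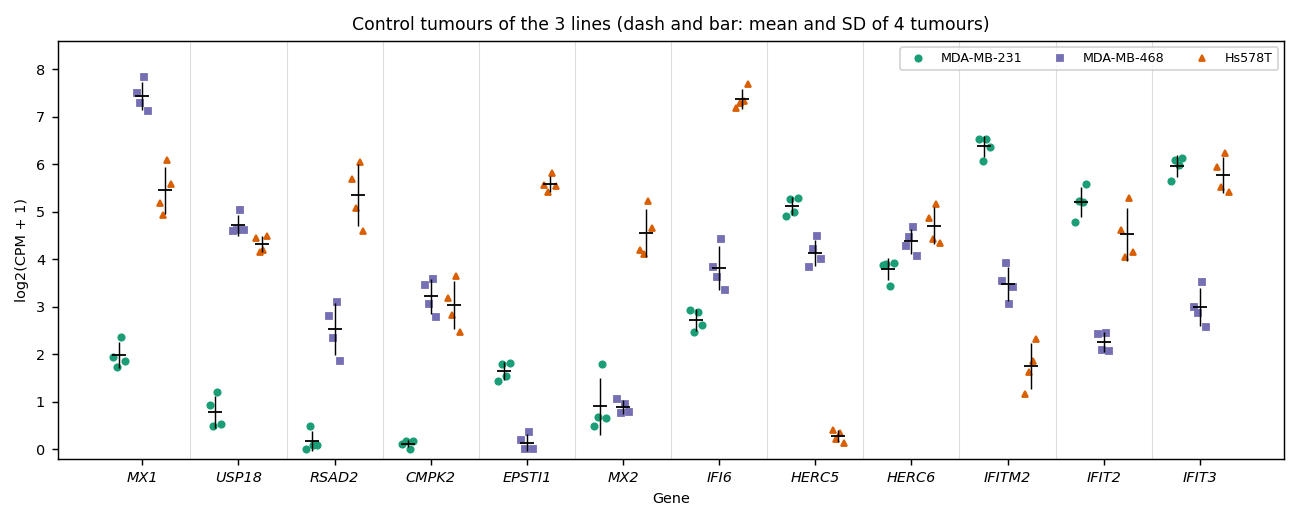
Levels of 12 interferon-stimulated genes as log2(CPM + 1) in the 4 control tumours of each line (circles for MDA-MB-231, squares for MDA-MB-468, triangles for Hs578T), with mean and SD. MX1, USP18, RSAD2 and CMPK2 are lowest in MDA-MB-231, EPSTI1, IFIT2 and IFIT3 in MDA-MB-468, and HERC5 and IFITM2 in Hs578T.

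Upstream of these genes, the receptors and kinases were listed in every line. In MDA-MB-231, IFNAR1 measured 78.95 ± 4.71 CPM in control and 53.4 ± 4.97 CPM in diabetic tumours (SD, n = 4) and differed by -0.56 ± 0.10, adjusted P = 0.0014. JAK1 (-0.49 ± 0.09, adjusted P = 0.00155) was also lower there, while IFNAR2 (0.02 ± 0.14) and IRF1 (0.18 ± 0.12) did not pass. Of the 60 pathway genes tested in that line, 3 rose and 15 fell, where 16.1% of all genes were called higher and 17% lower, with a median difference of -0.12 against about 0 for all genes. The 15 included the RIG-I adaptor MAVS (-0.68 ± 0.10, adjusted P = 0.000615), the RIG-I activating ligase TRIM25 (-1.03 ± 0.13, adjusted P = 0.00035) and the RNA-editing enzyme ADAR (-0.72 ± 0.12, adjusted P = 0.00124). The 3 that rose were TREX1, which degrades cytosolic DNA, SOCS1 and LY6E, at 0.78, 0.74 and 0.50. With the length and GC trend removed, 2 were higher and 12 lower, against 12.6% and 12.2% of all genes. IFNAR1, MAVS, TRIM25 and ADAR were among those that still passed as lower (-0.31, -0.39, -0.83 and -0.46), JAK1 did not (-0.21), and IRF1 and CGAS passed as higher (0.34 and 0.42) in place of the 3 named. In MDA-MB-468, 1 of 62 rose and 3 fell, against 3.11% and 5.13% of all genes, and of these GBP2, a guanylate-binding protein, differed by 0.95 ± 0.16, adjusted P = 0.0184. Without tumour 4, 3 rose and 6 fell there, against 10% and 11.3% of all genes, with GBP2 at 0.89. JAK1 (-0.26 ± 0.27), IFNAR1 (-0.20 ± 0.11), IFNAR2 (0.15 ± 0.11) and IRF1 (0.13 ± 0.14) gave no call there with all tumours, nor without tumour 4 (0.08, -0.11, 0.06 and 0.03), where the difference of JAK1 had the opposite sign. In Hs578T, 0 of 59 passed in limma and 8 had an unadjusted P under 0.05, against 11.4% of all genes, with JAK1 at 0.15 ± 0.15, IFNAR1 at 0.05 ± 0.11, IFNAR2 at -0.06 ± 0.12 and IRF1 at 0.08 ± 0.12. IFNB1, like the other ligand genes, was not listed.

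The labelled cell types were checked against markers. All 7 epithelial genes were listed, and their sum was 7179 to 10580.0 CPM in MDA-MB-468, 1242 to 2279 CPM in MDA-MB-231 and 44.9 to 116 CPM in Hs578T. In control MDA-MB-231 tumours most of it was KRT19, KRT8 and KRT18 (means of 515, 510 and 325 CPM). There EPCAM averaged 21.5, KRT14 1.01, CDH1 0.0688 and KRT5 0.0154 CPM. The 5 mesenchymal genes summed to 12593 to 19756 CPM in MDA-MB-231 and 35098 to 43265 CPM in Hs578T, and in MDA-MB-468 to 346 to 673 CPM in control and 80.4 to 359 CPM in diabetic tumours. The 5 endothelial genes summed to 104 to 115 CPM in control and 51.96 to 76.9 CPM in diabetic tumours of MDA-MB-468, without overlap. Nearly all of that sum was KDR (means of 108 and 65.1 CPM), and PECAM1, VWF, CDH5 and TEK reached at most 0.792 CPM. Of 7 skeletal muscle genes, 6 were listed. In Hs578T they summed to 1.07 to 11.2 CPM in control and 20.8 to 139 CPM in diabetic tumours, again without overlap. Most of the diabetic sum was MYH2 and MYH1 (means of 33.4 and 16.8 CPM), while CKM reached at most 0.121 CPM. The 139 CPM were those of diabetic tumour 4, which had the highest level of the 8 in 27 of the 43 members tested. Whether the muscle sum and the member levels moved together across tumours was not tested. The muscle sums were 0.0618 to 3.89 and 0.142 to 37.8 CPM in control and diabetic tumours of MDA-MB-231, and 1.39 to 6.70 and 1.88 to 15.2 CPM in MDA-MB-468. The estrogen receptor gene ESR1 lay under 0.5 CPM in all MDA-MB-231 and Hs578T tumours and at 3.43 to 7.59 CPM in MDA-MB-468. Of 8 leukocyte and macrophage markers, 5 were listed, and PTPRC, CD163 and AIF1, which define those cells, were not. Their sum was 131 to 171 CPM in control and 165 to 187 CPM in diabetic tumours of MDA-MB-231, 153 to 182 and 190.2 to 211 CPM in Hs578T, and 16.4 to 20.2 and 20.8 to 34.3 CPM in MDA-MB-468. Most of it in MDA-MB-231 and Hs578T was CD68 (means of 146 and 173 CPM in control and diabetic MDA-MB-231 tumours, and of 160.4 and 189.6 CPM in Hs578T), and in MDA-MB-468 the largest was CD14 (12.1 and 19.9 CPM), while CSF1R (3.58 and 2.33 CPM) and LYZ (1.84 and 1.15 CPM) went the other way in MDA-MB-231. The part of these cells in the member levels was not tested. The methods name no step that removes mouse reads, and how far host transcripts enter the human values was not tested.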

How the data were processed

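RNA from 24 tumours, 4 per line and host, was sequenced by the authors, who deposited 1 table of CPM values after TMM scaling in edgeR, which is treated here as a normalized signal since column totals run from 885017.8 to 1178752.5. The study's methods name hg19 and the submitters' processing notes hg38. The table holds no coordinates, so those given are RefSeq's on GRCh38.p14. Reads per library were inferred from the steps between low values, and 85.2% to 87.6% of values came out whole, too few for a count test. Genes with at least 0.5 CPM in at least 2 of the tumours compared were tested as log2(CPM + 1) with limma 3.58.1 in R 4.3.3 (moderated variance with a trend), within a line for hosts and over control tumours for lines, with Benjamini-Hochberg adjustment over all genes tested. Differences are on that scale, which understates changes of low genes. The F test of line by host used all 24 tumours. The fit was tested on simulated data with known changes.

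The 14 lines for copies of genes on the Y pseudoautosomal region were left out, and 0 columns remained unmapped. Length and GC content are those of the longest transcript in GENCODE 44 on GRCh37 and their trend was removed per library with splines of 5 df. Members are named by rule: per line the 5 called with the largest difference (or, with under 3 called, the 3 smallest P), per pair of lines the 2 largest called differences each way, and 12 representatives of roles. Others are named where called or where a single tumour or a promoter is described, chosen after their values were seen. Members and lists were chosen with earlier results of these data known. Alternatives changed the pseudocount, filter, scaling, replicate block, length and GC trend, samples in the fit, host and each left-out tumour. Leaving out mitochondrially encoded genes was chosen after seeing the data. That setting rescaled each library to its remaining total, which also undid the TMM scaling. Values of 1 pathway gene are not reported here.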

Additional observations from a re-analysis of the deposited data

Results flagged for a closer look

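The 27 members named by rule and the medians of the members were searched for single tumours that stood apart. Such tumours were found in 16 of 167 groups of 4 tested, by the gap to the nearest tumour relative to the whole range. For independent groups, chance alone would give about 1 in 20, or 8.35. These members were named partly for differences in these data and moved together within tumours, so that number is no test of the 16. Of the 16, 10 were in diabetic MDA-MB-468 tumours. All 10 were tumour 4 at the high end, with IRF7 at 76.9, ISG15 at 396, HERC5 at 33.0, IFIT1 at 126, MX2 at 5.49, IFITM1 at 329, IFITM2 at 29.3, IFITM3 at 1062, IFI6 at 204 and IFI27 at 323 CPM. Members not named by rule were left out of this search. Among them, OASL, IFI44L and XAF1 were 7.52-fold, 7.46-fold and 7.17-fold the mean of the other diabetic tumours there. The mitochondrial share of that tumour, 19.95%, was also the highest of its line. With mitochondrially encoded genes left out, 24 rather than 28 members were higher in the diabetic hosts at an adjusted P of 0.3 in limma. That setting also undid the TMM scaling. In control tumour 3 of MDA-MB-468, STAT2 at 27.4 CPM and USP18 at 31.9 CPM stood above the other 3. In MDA-MB-231, MX2 at 2.47 CPM in control tumour 3 and RSAD2 at 0.397 CPM in control tumour 2 stood apart, as did the median of the members in control tumour 3, 0.14 log2 units above the other control tumours. IFITM2 at 4.25 CPM in diabetic tumour 4 of Hs578T was the last of these.

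The host difference varied between lines for UBE2L6 (adjusted P = 0.00558) and SP100 (adjusted P = 0.0106) in limma's F test, with UBE2L6 higher in all 4 diabetic MDA-MB-468 tumours and lower in all 4 diabetic MDA-MB-231 tumours than in any control tumour of the line.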

How the results depend on the processing

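In MDA-MB-231, 10 members higher and 11 lower at an adjusted P of 0.05 became 1 (SP100) and 2 (DDX58 and SAMD9) in 1 fit on all 24 tumours. ISG15, IFI27, the IFITM genes and TRIM22 were among those that did not pass in that fit. The 11 lower became 7 with the replicate block, 5 with the length and GC trend removed and 4 with both. In MDA-MB-468, 2 higher became 1 with no filter, 4 with a mean of at least 1 CPM, 0 with the replicate block, with or without the length and GC trend removed, 11 in 1 fit on all 24 tumours and 1 without mitochondrial genes. In Hs578T, 0 higher and 0 lower at 0.3 became 2 and 1 with the replicate block, 2 and 1 with the trend removed and 2 and 2 with both. Members differing between lines in host effect numbered 4 with the trend removed, against 2. In diabetic tumours, 11 rather than 20 members were lower in MDA-MB-468 than in MDA-MB-231 and 15 rather than 25 higher in Hs578T than in MDA-MB-468. There UBE2L6 (0.16) and IFIT1 (0.0176) turned direction for MDA-MB-468 against MDA-MB-231, IRF9 (-0.0261) for Hs578T against MDA-MB-231, and IRF9 (-0.11) and IFI27 (-1.12) for Hs578T against MDA-MB-468. The cause of these changes was not tested.

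With each tumour left out in turn, MDA-MB-231 gave 6 to 12 higher and 5 to 8 lower at 0.05, with 6 and 5 without control tumour 4, 5 lower without diabetic tumours 1 or 2 and 7 lower without control tumours 1, 2 or 3. MDA-MB-468 gave 0 to 10 higher, with 0 without any 1 control tumour or diabetic tumour 2 or 3, 1 without diabetic tumour 1 and 10 without diabetic tumour 4. At 0.3 it gave 13 to 33 higher, with 15, 13 and 15 without control tumours 1, 2 and 4, and 0 to 3 lower, with 3 without diabetic tumour 4. Hs578T gave 0 to 3 higher at 0.3, with 2 without control tumour 3 and 3 without diabetic tumour 2, and 0 to 1 lower, with 1 without control tumour 4. The test between lines gave 2 to 7, with 7 and 6 without diabetic tumours 2 and 4 of MDA-MB-468, and 5, 5 and 4 without control tumour 3 and diabetic tumours 2 and 4 of Hs578T. Of 3567 values for single members, 3388 kept direction and side of the threshold, 64 gained and 110 lost the threshold and 5 turned direction.

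Same-numbered tumours of the 2 hosts did not deviate together in every pair (mean r of 0.175 in Hs578T, -0.00245 in MDA-MB-468 and -0.134 in MDA-MB-231), so the numbers were not taken to pair them, and 7 of the 10 higher and 7 of the 11 lower in MDA-MB-231 were shared with the replicate block. Depth limits RSAD2, CMPK2, HERC5 and EPSTI1 in the lines where they lie near 3 reads.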
